A study of Cucurbita pepo with 12 samples.

Results

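In zucchini (Cucurbita pepo, cv. Costata Romanesco), 27868 genes were measured in the root, the leaf and the pollen. Of these, 91 were expressed in leaf at a moderate to high level under every treatment and were low in the other organs. A gene was counted when its FPKM (read fragments scaled to transcript length and to the reads of the library) was at least 10 in all 4 leaf libraries, its highest leaf value was at most 3 times its lowest, and it stayed under 1 in all 4 root and all 4 pollen libraries. These 91 genes are 0.327% of the table. The values of all 12 libraries therefore chose the genes, so their difference between organs and their limited spread in leaf are descriptions and were not tested.

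Plants were germinated for 10 days, moved to 500 g of soil each and grown for 60 days until they flowered. The control plants received no added copper. The others received copper oxide nanoparticles (CuO NPs, 100 mg/kg of soil), copper oxide as bulk material (100 mg/kg) or copper sulfate pentahydrate (CuSO4, 320 mg/kg), each bringing about 80 mg/kg of copper. Root, leaf and pollen of each treatment gave 1 library each, 12 in all. The submitters state that 3 biological replicates per treatment were extracted, and the sources used here do not say how these relate to the single library, so differences between 2 leaf libraries are given without replicate error or p-values.

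The leaf is the organ in which most photosynthesis takes place, and much of what separates its transcripts from those of root and pollen is known to serve the chloroplast, the stomata and the cuticle. Roots take up water and ions from soil, and mature pollen carries a reduced set of transcripts used in germination and tube growth. Copper is needed in the leaf as the cofactor of plastocyanin, the electron carrier between the photosystems, and of copper/zinc superoxide dismutase, and is toxic in excess. None of the gene IDs of the table (0 of 27868) occurs in the RefSeq gene table used here. Genes are therefore named by ID, no function is given to any of them, and the organ labels could not be checked against named marker genes.

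Libraries of an organ were close in depth. The spacing of the lowest FPKM values gave depths relative to the control of the same organ of 0.915 to 1.10 for root libraries, 1.0 to 1.09 for leaf libraries and 0.986 to 1.15 for pollen libraries. Depth was not compared between organs. Between 19676 and 20957 genes reached 1 FPKM in a leaf library, 20550 to 20881 in a root library and 10309 to 11569 in a pollen library. In leaf, the bulk CuO and CuSO4 libraries stood apart from the control and nanoparticle libraries: on the log2(FPKM + 1) scale the SD over 20833 leaf genes of the difference from the control was 1.27 for bulk CuO and 1.17 for CuSO4, against 0.392 for nanoparticles.

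The rule narrowed the leaf transcripts in steps that show which demand was the hard one to meet. At least 10 FPKM in all leaf libraries was reached by 7415 genes, and 6212 of them (83.8%) also kept their highest value within 3 times the lowest. Of these 6212 steady leaf genes, 1619 (26.1%) stayed under 1 FPKM in all pollen libraries, but only 122 (1.96%) did so in all root libraries. Most genes that were low in root were low in pollen as well: 91 of the 122 (74.6%) met both limits. Taken the other way, 169 genes had at least 10 FPKM in every leaf library and under 1 in every root and pollen library, and 91 of them (53.8%) were steady. The share of steady genes was thus 53.8% among leaf genes low in both other organs and 83.8% among all genes at 10 FPKM or more in leaf. Since RNA came from whole tissue, fewer cells of a type and less RNA per cell cannot be told apart in any of these values.

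**Figure D1:**
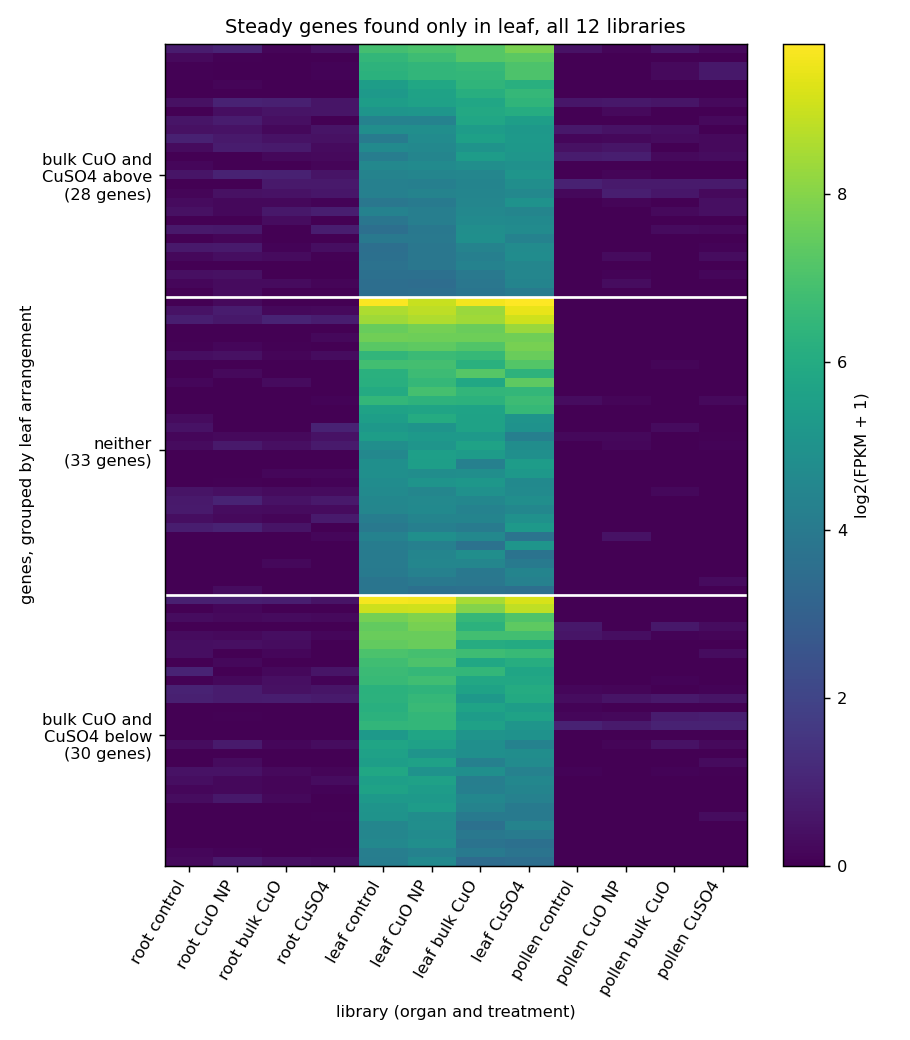
Level of the 91 genes (rows) in the 12 libraries (columns), as log2(FPKM + 1) on a colour scale. Rows are grouped by whether the bulk CuO and CuSO4 leaf libraries both lie above (28 genes) or below (30 genes) the control and nanoparticle leaf libraries, or neither (33 genes), and sorted by mean leaf level within a group; root and pollen columns are dark throughout because the rule keeps them under 1 FPKM.

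The 91 genes covered a wide range of leaf levels. Their means over the 4 leaf libraries ran from 11.6 to 749 FPKM with a median of 33.5 FPKM; 20 genes lay under 20 FPKM, 53 between 20 and 100 FPKM, and 18 at 100 FPKM or more. Steady leaf genes outside the group, 6121 in number, had a median of 25.2 FPKM. Together the 91 genes held 1.33% of the summed FPKM of the control leaf library, 1.36% under nanoparticles, 1.09% under bulk CuO and 1.43% under CuSO4. In root their share of the sum was at most 0.00382%, and in pollen at most 0.00124%.

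The most abundant of them was Cp4.1LG15g07050. It stood at 836 FPKM in control leaf, 493 FPKM with nanoparticles, 789 FPKM with bulk CuO and 879 FPKM with CuSO4, a mean of 749 ± 175 FPKM (SD over the 4 leaf libraries, which differ in treatment). The nanoparticle library was the low one and the other 3 lay close together. In the other organs it was listed at 0 in 7 of 8 libraries and at 0.198 FPKM in nanoparticle root.

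The second most abundant was Cp4.1LG05g00330, with 793 FPKM in control leaf, 782 FPKM with nanoparticles, 357 FPKM with bulk CuO and 583 FPKM with CuSO4. Here the bulk CuO library was the low one, by 1.15 below the control on the log2(FPKM + 1) scale, and control and nanoparticles were nearly equal. It was also among the genes nearest to the root limit, at 0.432 to 0.837 FPKM in the 4 root libraries, and was listed at 0 in all pollen libraries. At the other end of the range, Cp4.1LG01g22760 stood at 12.8, 11.1, 11.6 and 10.98 FPKM in control, nanoparticle, bulk CuO and CuSO4 leaf. Cp4.1LG19g01480 had the next lowest mean, with 10.5, 10.9, 13.0 and 15.7 FPKM in the same order.

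How steady the genes were within the limit of the rule also varied. The ratio of the highest to the lowest leaf library had a median of 1.96, with the middle range of genes from 1.63 to 2.39 (quartiles). It was at most 1.5 in 15 genes (16.5%) and over 2.5 in 17 (18.7%). The 6121 other steady leaf genes had a median ratio of 1.63, and 37.9% of them were at or under 1.5. The most even gene was Cp4.1LG02g13780, at 199 FPKM in control leaf, 198 FPKM with nanoparticles, 195 FPKM with bulk CuO and 201 FPKM with CuSO4. Its highest value was 1.03 times its lowest, and outside leaf it was listed above 0 in CuSO4 root alone, at 0.16 FPKM. Next came Cp4.1LG01g22760 with a ratio of 1.17.

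The limit of 3 cut through a continuous range of ratios. Just inside it, Cp4.1LG17g02820 had a ratio of 2.99, at 174 FPKM in control leaf, 186 FPKM with nanoparticles, 65.7 FPKM with bulk CuO and 62.1 FPKM with CuSO4. Cp4.1LG20g01930 had a ratio of 2.94, at 55.7, 30.6, 28.2 and 18.9 FPKM in the same order, so that its control library was the high one. Just outside were Cp4.1LG04g05480 at 3.08, whose CuSO4 library was high (187 FPKM against 60.8 to 92.4 FPKM), and Cp4.1LG20g04940 at 3.09, whose bulk CuO library was high (37.4 FPKM against 12.1 to 18.7 FPKM). Below the leaf minimum, Cp4.1LG03g05050 and Cp4.1LG18g04950 were nearest, with lowest leaf values of 9.73 and 9.60 FPKM.

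The genes beyond the ratio limit show what the rule set aside. There were 78 leaf genes low in root and pollen with a ratio over 3, and in 49 of them (62.8%) both the bulk CuO and the CuSO4 leaf library lay above control and nanoparticles, while in 15 (19.2%) both lay below. Among the 91 steady genes these arrangements were found in 28 (30.8%) and 30 (33.0%), against 42.5% and 30.8% of the 20833 genes that averaged 1 FPKM or more in leaf. The 6121 other steady leaf genes, which met the same leaf limits, had 31.99% and 34.16%, close to the shares of the 91 genes. The widest ratio among the 78 was 55.4, that of Cp4.1LG18g05180. It stood at 22.7 FPKM in control leaf, 16.8 FPKM with nanoparticles, 932 FPKM with bulk CuO and 455 FPKM with CuSO4. Cp4.1LG05g02950 had the largest decrease from control to bulk CuO, from 277 to 13.2 FPKM, with 406 FPKM with nanoparticles and 28.5 FPKM with CuSO4. The minimum of 10 FPKM in every leaf library bears on these counts, because a gene of moderate level that falls beyond the ratio limit drops below the minimum, while one that rises stays. Another 309 genes low in root and pollen reached 10 FPKM in their highest leaf library but not in all 4, and are in neither group.

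**Figure D2:**
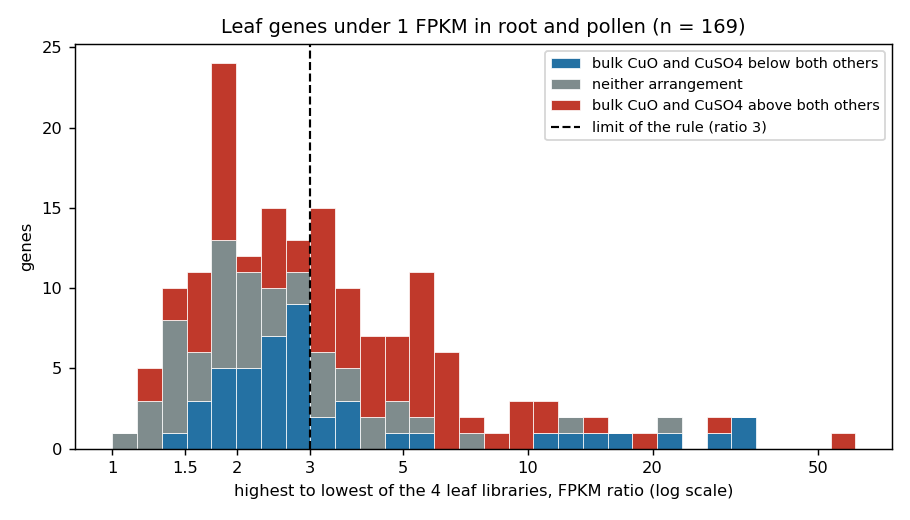
Ratio of the highest to the lowest of the 4 leaf libraries (log scale) for the 169 genes with at least 10 FPKM in every leaf library and under 1 FPKM in every root and pollen library. Colours give the arrangement of the leaf libraries and the dashed line the limit of 3, with 91 genes at or under it and 78 above; genes with bulk CuO and CuSO4 above both others make up 49 of those 78.

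In root, the 91 genes were low but often not at 0. Between 38 and 45 of them were listed at 0 in a given root library, and 21 were listed at 0 in all 4; 32 were above 0 in all 4. An exact 0 can be a failed estimate, so it is given as listed. Pollen was emptier: 60 to 73 genes were listed at 0 in a library, 50 in all 4, and 10 were above 0 in all 4. The whole table went the same way: of 27868 genes, 3496 to 3839 were listed at 0 in a root library and 8594 to 10666 in a pollen library. The mean was higher in root than in pollen for 59 of the 91 genes, higher in pollen for 16 and equal, at 0, for 16. The ceiling is part of the rule. Of the 91 genes, 33 reached 0.5 FPKM in some root or pollen library and 8 reached 0.9 FPKM.

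Cp4.1LG18g00150 had the highest root value, at 0.983 FPKM with bulk CuO, with 0.768, 0.548 and 0.726 FPKM in control, nanoparticle and CuSO4 root. Its leaf values were 332 to 532 FPKM and it was listed at 0 in all pollen libraries. Cp4.1LG19g05410 reached 0.963 FPKM in nanoparticle root, with 22.0 to 27.2 FPKM in leaf. Just outside the root limit were Cp4.1LG16g00500, at 1.005 FPKM in nanoparticle root, and Cp4.1LG01g11070, at 1.018 FPKM there and 395 to 588 FPKM in leaf.

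Cp4.1LG15g07490 had the highest single pollen value, under CuSO4, and stood at 0.903, 0.638, 0.89 and 0.936 FPKM in control, nanoparticle, bulk CuO and CuSO4 pollen, and was listed at 0 in all root libraries. In leaf it stood at 84.9, 89.1, 46.9 and 33.2 FPKM in that order. Cp4.1LG00g14360 reached 0.863 FPKM in control pollen, with 17.8 to 27.8 FPKM in leaf. Just outside the pollen limit were Cp4.1LG03g06410, at 1.03 FPKM, and Cp4.1LG08g03170, at 1.18 FPKM, each in nanoparticle pollen.

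**Figure D3:**
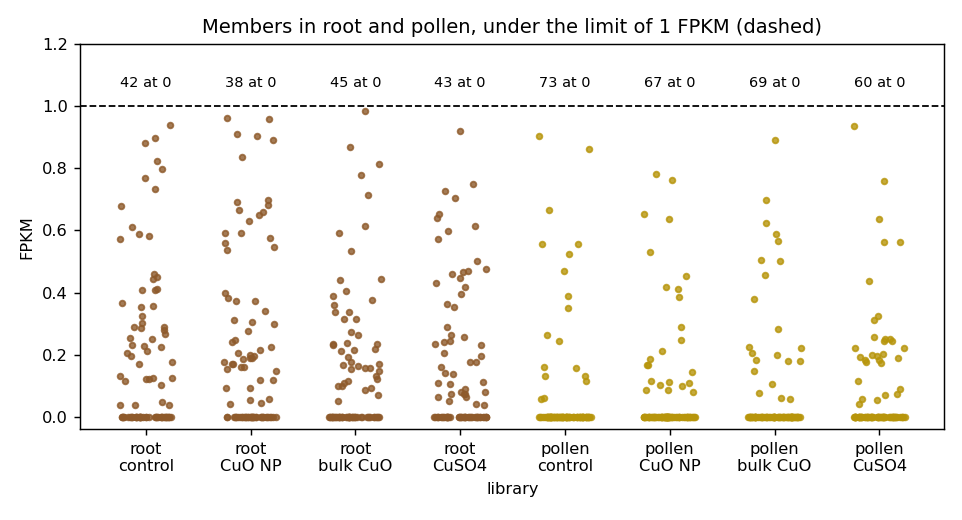
FPKM of the 91 genes in each of the 4 root and 4 pollen libraries; each point is a gene, the dashed line is the limit of 1 FPKM set by the rule, and the number above each library counts genes listed at 0. Root libraries list 38 to 45 genes at 0 and pollen libraries 60 to 73.

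In the 16 genes listed at 0 in all 8 root and pollen libraries, the leaf level was similar to that of the others, with a median of 30.1 FPKM against 34.1 FPKM in the other 75. Cp4.1LG05g14170 was one of them, with 38.3 FPKM in control leaf, 48.7 FPKM with nanoparticles, 69.6 FPKM with bulk CuO and 91.6 FPKM with CuSO4. All 3 materials stood above the control in this gene. Cp4.1LG04g10690 was another, at 32.6, 42.0, 19.9 and 14.9 FPKM in the same order, with bulk CuO and CuSO4 below.

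Between control and nanoparticle leaf, differences were small and mostly in 1 direction. Of the 91 genes, 70 (76.9%) were higher under nanoparticles by any amount, against 48.6% of the 20833 leaf genes and 49.8% of the 6121 other steady leaf genes. The median difference of the 91 genes was 0.14 on the log2(FPKM + 1) scale, and that of all leaf genes -0.01. Few genes differed by 1.5 times or more in FPKM + 1: 4 were higher (4.40%, against 3.47% of all leaf genes) and 2 lower (2.20%, against 5.27%). Among the other steady leaf genes, 0.866% were higher and 0.948% lower by that much.

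The largest differences from control to nanoparticles were those of 4 genes. Cp4.1LG05g07170 went from 22.4 to 44.6 FPKM, a log2 difference of 0.96, with 39.9 FPKM with bulk CuO and 28.0 FPKM with CuSO4. Cp4.1LG11g07560 went from 62.7 to 119 FPKM, a difference of 0.92, with 85.4 and 88.7 FPKM with bulk CuO and CuSO4. Cp4.1LG20g01930 went from 55.7 to 30.6 FPKM, a difference of -0.84, and Cp4.1LG15g07050 from 836 to 493 FPKM, a difference of -0.76. Both of the higher genes were among the 16 listed at 0 in all root and pollen libraries. Of these 16, 15 were higher under nanoparticles than in the control, as were 55 of the other 75 (73.3%) and 48.6% of all leaf genes. The difference between the 16 and the 75 was not tested.

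Steady leaf genes under 1 FPKM in pollen were sorted by their highest root value. Of the 181 genes with a root value from 1 to under 5 FPKM, 69.6% were higher in nanoparticle than in control leaf. The share was 51.6% of the 655 genes from 5 to under 20 FPKM and 44.4% of the 692 genes at 20 FPKM or more. The 91 genes had 76.9%. The 78 leaf genes low in root and pollen with a ratio over 3 had 53.8%. Their root values are also under 1 FPKM, and they differ from the 91 genes in their leaf ratio. The 3 classes fell in the same order under CuSO4 and bulk CuO, but there the 91 genes did not continue it. Above the control under CuSO4 were 72.4%, 56.8% and 45.5% of the 3 classes and 56.0% of the 91 genes. Under bulk CuO these shares were 56.9%, 53.7% and 50.7% of the classes and 51.6% of the 91 genes. The rule itself limits the root level. All these nanoparticle shares come from the same pair of libraries, so they are not independent of each other, and the difference between them was not tested. Within the 91 genes the share was 16 of 20 under 20 FPKM in leaf, 40 of 53 between 20 and 100 FPKM, and 14 of 18 at 100 FPKM or more. In the other steady leaf genes it was 43.5%, 52.2% and 61.6% for the same levels.

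Under bulk CuO, the 91 genes split in both directions around the control. At 1.5 times or more in FPKM + 1, 19 genes were higher (20.9%, against 33.7% of all leaf genes) and 27 lower (29.7%, against 21.6%). Among the other steady leaf genes, which met the same leaf limits, 18.7% were higher and 17.3% lower. By any amount, 47 genes were above the control (51.6%, against 57.9%). The median of the 91 genes was 0.02 above it, whereas the median of all leaf genes was 0.18 above. After the leaf libraries were shifted to a common median, the median of the 91 genes turned to -0.15, with 14 genes higher and 28 lower (15.4% and 30.8%). All leaf genes under that shift had 28.2% higher and 26.2% lower.

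Cp4.1LG02g17070 and Cp4.1LG01g21680 had the largest increases under bulk CuO. Cp4.1LG02g17070 stood at 15.7 FPKM in control leaf, 25.3 FPKM with nanoparticles, 46.1 FPKM with bulk CuO and 37.5 FPKM with CuSO4, a log2 difference between bulk CuO and control of 1.49. Cp4.1LG01g21680 stood at 18.9, 19.4, 54.9 and 44.2 FPKM in the same order, also a difference of 1.49. In the first gene all materials lay above the control, and in the second the nanoparticle library lay with the control. The largest decreases were those of Cp4.1LG13g02210, from 48.5 to 17.8 FPKM (-1.40), and Cp4.1LG17g02820, from 174 to 65.7 FPKM (-1.39). In Cp4.1LG13g02210 the nanoparticle library stood at 41.9 FPKM and the CuSO4 library at 20.5 FPKM.

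Under CuSO4, 30 genes were at least 1.5 times higher than in the control (33.0%, against 29.1% of all leaf genes) and 21 lower (23.1%, against 22.5%). By any amount, 51 genes were above the control (56.0%, against 53.7%). These shares are near those of all leaf genes. The other steady leaf genes had 15.3% higher and 17.4% lower. Cp4.1LG04g07230 had the largest increase, from 14.5 FPKM in the control to 37.9 FPKM, a log2 difference of 1.33, with 17.6 FPKM with nanoparticles and 15.9 FPKM with bulk CuO. CuSO4 was the only high library of this gene. Cp4.1LG05g14170 followed with a difference of 1.24, and the largest decreases were those of Cp4.1LG20g01930 (-1.51) and Cp4.1LG17g02820 (-1.47). These comparisons of nanoparticles, bulk CuO and CuSO4 share 1 control library, so they are given side by side.

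**Figure D4:**
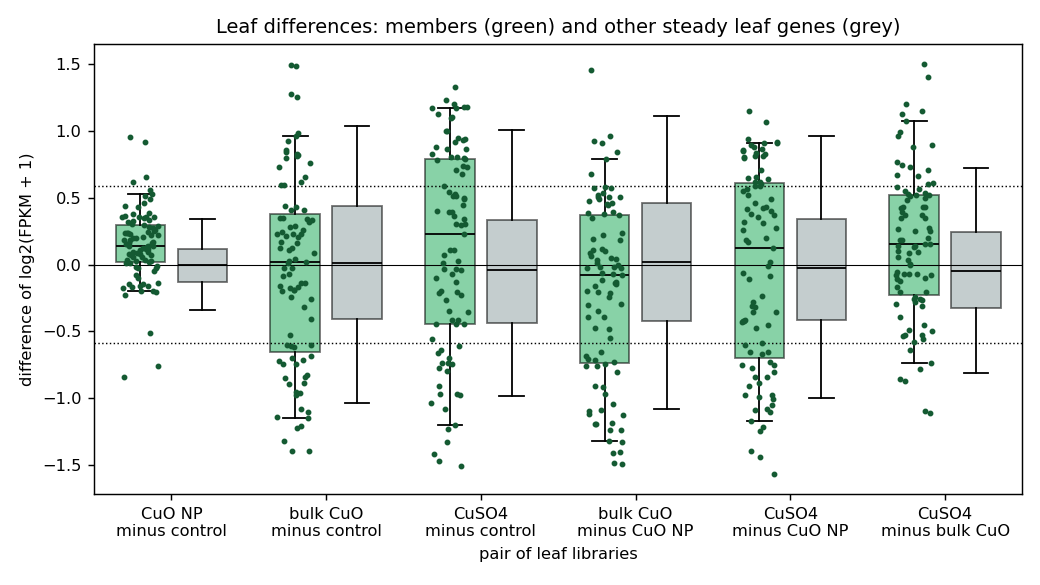
Difference of log2(FPKM + 1) between pairs of leaf libraries for the 91 genes (green boxes and points) and the 6121 other steady leaf genes (grey boxes); boxes span the quartiles with the median as a line, whiskers the 5th to 95th percentile, and dotted lines mark 1.5 times. In the first pair, 70 of the 91 genes lie above 0 and nearly all lie within the dotted lines; the next 4 pairs, which set bulk CuO or CuSO4 against control or nanoparticles, spread widely in both directions.

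The materials were also compared with each other, without the control library. Bulk CuO against nanoparticles gave 7 genes at least 1.5 times higher (7.69%, against 34.5% of all leaf genes) and 28 lower (30.8%, against 21.7%). Among the other steady leaf genes 19.7% were higher and 18.4% lower. By any amount, 38 of the 91 genes were higher (41.8%, against 58.3% of all leaf genes). Cp4.1LG01g21680 had the largest increase, with a log2 difference of 1.46, followed by Cp4.1LG04g07370 with 0.96, which stood at 16.8, 20.8, 41.4 and 34.6 FPKM in control, nanoparticle, bulk CuO and CuSO4 leaf. Cp4.1LG02g00190 had the largest decrease here, from 219 to 77.2 FPKM, a difference of -1.49. Its control and CuSO4 libraries stood at 172 and 164 FPKM, so bulk CuO was the low library. Cp4.1LG17g02820 came next with -1.48.

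CuSO4 against nanoparticles gave 26 genes higher (28.6%, against 29.2% of all leaf genes) and 27 lower (29.7%, against 22.2%). By any amount, 47 were higher (51.6%, against 54%). After a shift of the leaf libraries to a common median, 18 genes were higher and 28 lower at 1.5 times (19.8% and 30.8%, against 26.2% and 25.1% of all leaf genes under that shift). Among the other steady leaf genes 14.7% were higher and 17.0% lower, unshifted. The largest increases were those of Cp4.1LG01g21680 (1.15) and Cp4.1LG04g07230 (1.07), and the largest decreases those of Cp4.1LG17g02820 (-1.56) and Cp4.1LG04g10690 (-1.44).

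CuSO4 against bulk CuO gave 18 genes higher (19.8%, against 10.2% of all leaf genes) and 7 lower (7.69%, against 17.7%). The other steady leaf genes had 8.18% higher and 10.9% lower. By any amount, 56 of the 91 genes were higher (61.5%, against 41.5% of all leaf genes). A larger share under CuSO4 was not particular to the 91 genes. The 78 leaf genes low in root and pollen with a ratio over 3 had 34.6% higher, 15.4% lower and 66.7% higher by any amount. In 31 steady leaf genes low in root but not in pollen, these shares were 41.9%, 6.45% and 74.2%. After a shift of the leaf libraries to a common median, 28 genes were higher and 6 lower (30.8% and 6.59%, against 13.2% and 14.2% of all leaf genes under that shift). Cp4.1LG05g01400 had the largest increase from bulk CuO to CuSO4. It stood at 70.4 FPKM in control leaf, 91.0 FPKM with nanoparticles, 56.4 FPKM with bulk CuO and 161 FPKM with CuSO4, a difference of 1.5 between the last pair. Cp4.1LG11g09930 went from 12.03 to 33.6 FPKM, a difference of 1.41. In both genes CuSO4 was the high library and bulk CuO the low one. The largest decreases were those of Cp4.1LG03g07560, from 27.8 to 12.3 FPKM (-1.11), and Cp4.1LG13g00600, from 38.5 to 17.5 FPKM (-1.10).

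By leaf level, 6 of the 18 genes at 100 FPKM or more were above the control under bulk CuO (33.3%, median log2 difference -0.20), 28 of the 53 genes between 20 and 100 FPKM (52.8%, median 0.02) and 13 of the 20 genes under 20 FPKM (65%, median 0.32). In the other steady leaf genes of these levels the shares were 51.3%, 49.8% and 52.6%, and over all leaf genes 57.9%. From bulk CuO to CuSO4, 15 of the 18 most abundant genes were higher (83.3%, median 0.63), 30 of the 53 (56.6%, median 0.13) and 11 of the 20 (55%, median 0.11). The other steady leaf genes had 52.4%, 45.2% and 45.7%, and all leaf genes 41.5%. No test was made between these classes.

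The library in which a gene was highest differed from the leaf at large. CuSO4 held the highest value in 37 of the 91 genes (40.7%, against 22.1% of all leaf genes and 23.9% of the other steady leaf genes). Nanoparticles held it in 29 (31.9%, against 18.9%), bulk CuO in 15 (16.5%, against 38.2%) and the control in 10 (10.99%, against 20.7%). Among the other steady leaf genes these shares were 22.9%, 31.96% and 21.2%. The control was the lowest library in 34 genes (37.4%, against 26.2%) and nanoparticles in 8 (8.79%, against 26%). Bulk CuO was the lowest in 26 (28.6%, against 22.6%) and CuSO4 in 23 (25.3%, against 25.3%). The other steady leaf genes had 20.9%, 22.3%, 27.4% and 29.4% in this order. The 78 genes beyond the ratio limit shared part of this pattern. CuSO4 was highest in 48.7% of them, bulk CuO in 28.2% and the control in 8.97%, and the control was lowest in 35.9% and bulk CuO in 29.5%. They differed from the 91 genes in nanoparticles, highest in 14.1% and lowest in 29.5%, and in CuSO4, lowest in 5.13%.

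Some genes stood apart in a single library, by at least 1.5 times in FPKM + 1 from each of the other 3. CuSO4 was alone on the high side in 8 genes (8.79%, against 3.5% of all leaf genes) and alone on the low side in 2 (2.20%, against 4.39%). Bulk CuO was alone on the low side in 7 genes (7.69%, against 5%) and alone on the high side in 0 (against 10.3%; 5.44% of the other steady leaf genes). Cp4.1LG04g07230 and Cp4.1LG05g01400, described above, are among the 8. Cp4.1LG02g00190 and Cp4.1LG05g00330 are among the 7. The control was alone on the high side in Cp4.1LG20g01930 (1 gene, 1.10%, against 2.74%) and alone on the low side in Cp4.1LG02g17070 (1 gene, against 1.36%). Nanoparticles were alone on the low side in Cp4.1LG15g07050 (1 gene, against 1.27%) and on the high side in 0 genes (against 1.03%). Cp4.1LG13g00600 is 1 of the 2 genes low under CuSO4 alone, at 42.4, 38.2 and 38.5 FPKM in control, nanoparticle and bulk CuO leaf against 17.5 FPKM. The other steady leaf genes had smaller shares than all leaf genes throughout. On the high side they had 0.229% for the control, 0.196% for nanoparticles and 2.48% for CuSO4. On the low side they had 0.147%, 0.196% and 1.797% in the same order, and 2.88% for bulk CuO. The shares of the 91 genes were larger than these wherever their count was above 0, but the control and nanoparticle counts are 1 gene at most.

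A pair of comparisons that share no library, bulk CuO against control and CuSO4 against nanoparticles, gave the same direction for part of the genes. At 1.5 times or more in each, 10 genes were higher in both (10.99%, against 23.4% of all leaf genes) and 18 lower in both (19.8%, against 15.7%), and 2 went in opposite directions (2.20%, against 1.05%). Among the other steady leaf genes 9.02% were higher in both, 10.3% were lower in both and 0.18% went in opposite directions. Cp4.1LG01g21680 was among the 10, with differences of 1.49 and 1.15, and Cp4.1LG17g02820 among the 18, with -1.39 and -1.56.

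**Figure D5:**
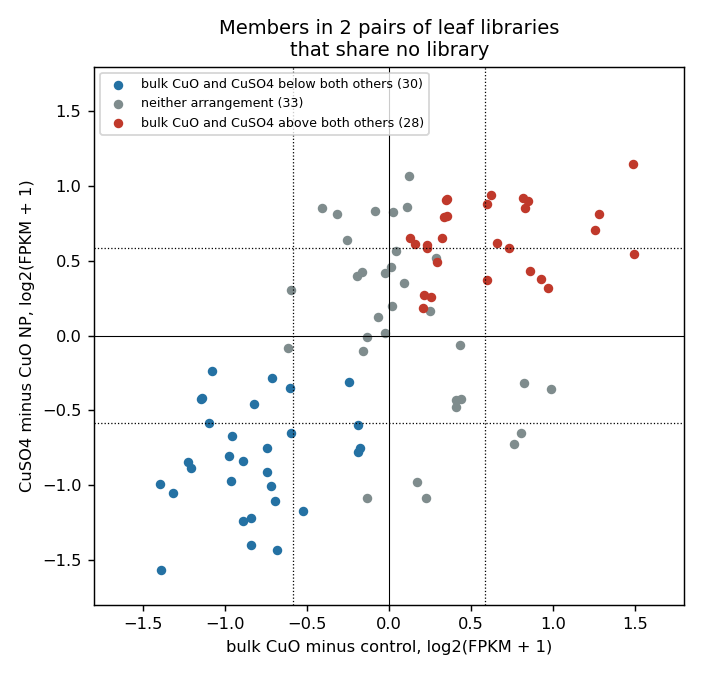
Each point is 1 of the 91 genes, with the leaf difference between bulk CuO and control on the horizontal axis and between CuSO4 and nanoparticles on the vertical axis, both in log2(FPKM + 1); dotted lines mark 1.5 times. Of the 91 genes, 10 lie beyond the lines in the upper right corner, 18 in the lower left and 2 in the other corners.

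The arrangement groups differed in level. The 30 genes with bulk CuO and CuSO4 below both others had a median leaf mean of 50.8 FPKM, and their mean under those materials was 0.545 times that in control and nanoparticle leaf (median over genes, range 0.355 to 0.824). The 28 genes with both above had a median leaf mean of 24.9 FPKM and a ratio of 1.59 (range 1.15 to 2.59). The remaining 33 had a median of 34.1 FPKM. The limit of 3 bounds these ratios.

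The genes were scattered over the gene IDs, whose prefixes name linkage groups LG01 to LG20 and an LG00 series. All 21 prefixes held at least 1 of the 91 genes. LG04 and LG05 held 8 each (8.79% each, against 5.90% and 5.65% of all genes of the table). LG12 and LG14 held 1 each (1.10% each, against 4.31% and 3.85%). Per 100 genes of the table, LG16 had 0.742 and LG15 had 0.654, against 0.0833 in LG12. No 2 of the 91 genes followed each other in ID order (0 pairs). Genes that make up only 0.327% of the table would rarely be neighbours, so this count says little about clustering. The nearest pairs, Cp4.1LG00g11470 with Cp4.1LG00g11610 and Cp4.1LG04g07230 with Cp4.1LG04g07370, were 14 rows apart. The latter pair differed in leaf: CuSO4 alone was high in Cp4.1LG04g07230, while bulk CuO and CuSO4 were both high in Cp4.1LG04g07370. None of the 91 (0 genes) had values identical to those of another gene in all 12 libraries, although 292 genes of the table did. A near-identical pair was counted as 2 genes, and how reads were divided between them is uncertain. Cp4.1LG00g11610 stood at 79.1, 86.2, 92.9 and 132 FPKM in control, nanoparticle, bulk CuO and CuSO4 leaf, and Cp4.1LG16g01910 at 74.9, 86.0, 88.1 and 130 FPKM. Their values were the same in all 8 root and pollen libraries, at 0.563 FPKM or less. Cp4.1LG02g01180 and Cp4.1LG06g05100 also shared their 8 root and pollen values, of which 7 were 0, but differed in leaf, at 42.7 to 84.4 FPKM and 14.4 to 28.2 FPKM.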

How the data were processed

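Messenger RNA of 12 samples (root, leaf and pollen under 4 treatments, 1 library each) was sequenced as single reads of 75 bp, per the series design text. Per that text the authors aligned reads with STAR to a cucurbit reference transcriptome and normalized them to FPKM, the unit of the deposited table; cutadapt and StringTie are named in the submitters' processing notes. Their versions and the build are not stated here, and read totals were not used here.

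The rule was applied to the deposited FPKM values. Pairs of leaf libraries were compared as differences of log2(FPKM + 1), which understates the change of low genes, and counted past 1.5 times. The background was the 20833 genes that averaged 1 FPKM or more in leaf. With 1 library per group and genes chosen on these values, no test was made. Relative depth came from ratios of FPKM values between 0.05 and 1.5 in pairs of libraries of an organ, which pile up at whole-number ratios; estimates closed within 0.002 on the log2 scale. At most 2 genes were named for each description: highest, lowest, most and least even, nearest each limit, and largest difference per pair of leaf libraries. Genes also named as standing apart in a single library, as sharing root and pollen values, or within the 78 unsteady and 31 pollen-expressed genes, were chosen after their values were seen. The members and lists were chosen with earlier results of these data known. Lists of photosynthesis, copper and organ marker genes could not be applied, because the IDs carry no names. The rule, and the count past 1.5 times for CuSO4 against control in leaf, were checked on simulated data. The other steps were not checked in this way. All steps used Python 3.11.15, numpy 2.4.6, pandas 2.3.3 and matplotlib 3.10.9.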

Additional observations from a re-analysis of the deposited data

How the results depend on the processing

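The number of genes follows the limits of the rule. It was 141 with a leaf minimum of 5 FPKM and 49 with 20 FPKM, 53 with a ratio of at most 2, and 58 and 165 with root and pollen limits of 0.5 and 2 FPKM. Chosen after seeing the data, the rule gave 286 genes without the bulk CuO and CuSO4 libraries and 355 without the control and nanoparticle libraries; fewer libraries have fewer limits to meet. Leaving out the 3 libraries of a single treatment gave 110 to 136 genes, and scaling each library to its organ's median 86, of which 79 were among the 91. At 2 times in place of 1.5 times, with the percentage of all leaf genes in brackets, 0 genes (0.773%) were higher and 0 (1.64%) lower under nanoparticles against control, 4 (21.3%) and 9 (13.6%) under bulk CuO, and 11 (17.5%) and 8 (13.4%) under CuSO4. Against nanoparticles, bulk CuO gave 1 (21.7%) and 16 (13.1%) and CuSO4 2 (17.1%) and 11 (12.7%). CuSO4 against bulk CuO gave 6 (3.84%) and 2 (6.88%). The bracketed percentages are of genes not bound by the ratio limit. Of the 6121 other steady leaf genes, which are bound by it, 355 rose and 342 fell this far from control to bulk CuO. From control to CuSO4 these counts were 313 and 284, and from control to nanoparticles 5 and 5. From nanoparticles they were 438 and 393 to bulk CuO and 252 and 304 to CuSO4. From bulk CuO to CuSO4 they were 104 and 140. A pseudocount of 5 left 2 of the 91 genes higher under nanoparticles. A common median in leaf gave 28 genes higher under CuSO4 than under bulk CuO. The other alternatives kept counts within 1.5 times. The median leaf level was 33.4 FPKM with a limit of 0.5 FPKM in root and pollen; that limit cannot remove a gene listed at 0 throughout, and counting identical genes once has no pair among the 91 to merge, so neither says anything about stability there. No paired analysis was possible because each organ and treatment has 1 library and no test was made. Depth in reads is unknown, so values under 1 FPKM have no counting interval.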

Other observations

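Another 31 genes met the leaf limits and stayed under 1 FPKM in all root libraries but reached 1 FPKM in at least 1 pollen library. The most abundant in leaf was Cp4.1LG09g03060, which misses the group of 91 through a single value: it stood at 4758, 5435, 8499 and 9092 FPKM in control, nanoparticle, bulk CuO and CuSO4 leaf and at 2.10 FPKM in CuSO4 pollen, with 0 to 0.653 FPKM in the other pollen libraries. Cp4.1LG05g05550 was higher in pollen, at 154 to 192 FPKM, than in leaf, at 32.01 to 81.0 FPKM, and stayed at 0.375 to 0.72 FPKM in root. Cp4.1LG01g16940 stood at 81.1 to 137 FPKM in leaf and 109 to 123 FPKM in pollen and was listed at 0 in all root libraries. Of the 31 genes, 27 were higher in nanoparticle than in control leaf (87.1%, against 48.6% of the 20833 leaf genes), 17 were highest under CuSO4 (54.8%, against 22.1%) and 0 were highest in the control (against 20.7%). Their leaf libraries are those of the 91 genes, so these counts are no independent repeat.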
